A study of Mus musculus with 6 samples.

Results

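The liver breaks down most amino acids through enzymes that hepatocytes hold at high levels, and 42 genes of these pathways were followed here in livers of mice on a diet short of methyl donors. The genes encode the enzymes that degrade phenylalanine and tyrosine, tryptophan, histidine, the branched-chain amino acids, lysine, proline and ornithine, alanine and aspartate, serine and threonine, and glycine. They were chosen by name: 39 of the 42 were found among the 27670 genes that the array names, and 38 of these gave a signal that could be tested. Total liver RNA was labelled with a single dye and hybridised to Agilent whole-genome mouse arrays. There were 3 arrays of livers from mice on the CFD diet and 3 of livers from mice on the control diet. All mice were male C57BL/6J, an inbred laboratory strain with no engineered allele, 8 weeks old at the start and 20 weeks old after 12 weeks of feeding. The CFD diet contained neither choline nor folic acid and 0.17% methionine. The control diet shared its base, which is built from free amino acids and supplemented with iron, and had folic acid at 2 mg/kg, methionine at 0.4% and choline bitartrate at 0.3% added to it. Whether each replicate came from its own mouse is not stated in the labels, so p-values here reflect array-to-array spread, which may be technical.

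As background, the carbon skeleton of each amino acid is freed of its nitrogen and then cut down to intermediates that enter the citric acid cycle, glucose synthesis or ketone bodies. The nitrogen passes to urea. Enzymes that act early in a pathway, such as tyrosine aminotransferase, tryptophan 2,3-dioxygenase, histidine ammonia lyase and serine dehydratase, are known in rodent liver to be induced by glucocorticoids, glucagon or a protein-rich diet. Many of the genes are active mainly in hepatocytes, and several mark the hepatocytes around the portal vein.

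The promoter letters of 5 genes are shown because these genes hold the ends of the pattern that follows: Afmid, Hal, Uroc1 and Aass had the deepest falls among the enzymes with a RefSeq window, and Gpt2 was the only enzyme that rose. Each line holds the 250 bases before the RefSeq transcription start on GRCm38.p6, read 5′ to 3′ on the strand of the gene, and capitals mark matches to the motifs described at the end of the report. The windows lie at chr11:117825669-117825918 on the plus strand (Afmid), chr10:93488518-93488767 on the plus strand (Hal), chr6:90333039-90333288 on the plus strand (Uroc1), chr6:23132987-23133236 on the minus strand (Aass) and chr8:85492326-85492575 on the plus strand (Gpt2).
Afmid: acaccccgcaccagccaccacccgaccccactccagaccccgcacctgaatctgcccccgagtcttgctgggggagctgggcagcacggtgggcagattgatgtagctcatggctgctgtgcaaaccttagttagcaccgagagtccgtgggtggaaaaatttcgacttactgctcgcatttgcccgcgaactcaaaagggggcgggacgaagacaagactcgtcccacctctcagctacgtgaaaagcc
Hal: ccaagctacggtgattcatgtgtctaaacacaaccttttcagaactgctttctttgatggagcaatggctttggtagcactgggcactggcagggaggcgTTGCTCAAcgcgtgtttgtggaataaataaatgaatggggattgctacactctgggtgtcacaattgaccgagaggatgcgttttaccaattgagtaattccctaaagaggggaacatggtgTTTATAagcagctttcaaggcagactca
Uroc1: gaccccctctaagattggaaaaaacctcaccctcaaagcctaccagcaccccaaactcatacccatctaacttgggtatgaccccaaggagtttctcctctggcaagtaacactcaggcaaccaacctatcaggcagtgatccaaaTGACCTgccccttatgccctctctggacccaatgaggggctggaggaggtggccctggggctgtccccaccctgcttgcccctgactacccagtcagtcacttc
Aass: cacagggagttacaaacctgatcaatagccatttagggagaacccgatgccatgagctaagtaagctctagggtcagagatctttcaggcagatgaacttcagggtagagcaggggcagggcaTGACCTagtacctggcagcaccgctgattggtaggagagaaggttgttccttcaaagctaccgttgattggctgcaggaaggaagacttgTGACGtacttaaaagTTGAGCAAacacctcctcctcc
Gpt2: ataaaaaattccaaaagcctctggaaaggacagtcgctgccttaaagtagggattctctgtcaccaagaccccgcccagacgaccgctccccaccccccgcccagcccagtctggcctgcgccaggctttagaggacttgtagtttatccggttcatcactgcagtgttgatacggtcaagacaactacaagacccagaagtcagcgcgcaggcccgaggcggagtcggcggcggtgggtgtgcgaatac

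Most of the breakdown enzymes were lower on the CFD diet. By limma with p-values adjusted over all 15910 tested genes, 32 of the 38 tested enzymes fell, 1 rose and 5 did not pass the adjusted p threshold of 0.05. The background is wide: 51.1% of all tested genes were called, with 27.4% lower and 23.7% higher. Falls of at least 2-fold were found for 20 of the 38 enzymes, against 9.77% of all tested genes, and no enzyme rose by as much. The log2 fold changes (CFD diet minus control) ran between -3.44 and 0.62, with a median of -1.10, while the median over all tested genes was -0.11. The CFD diet arrays did not overlap the control arrays for 35 enzymes, against 63.0% of all tested genes, and lay wholly below them for 34, against 34.6% of all tested genes. These genes were chosen with earlier results of the same arrays known, so the counts describe them and are no test of the list.

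**Figure D1:**
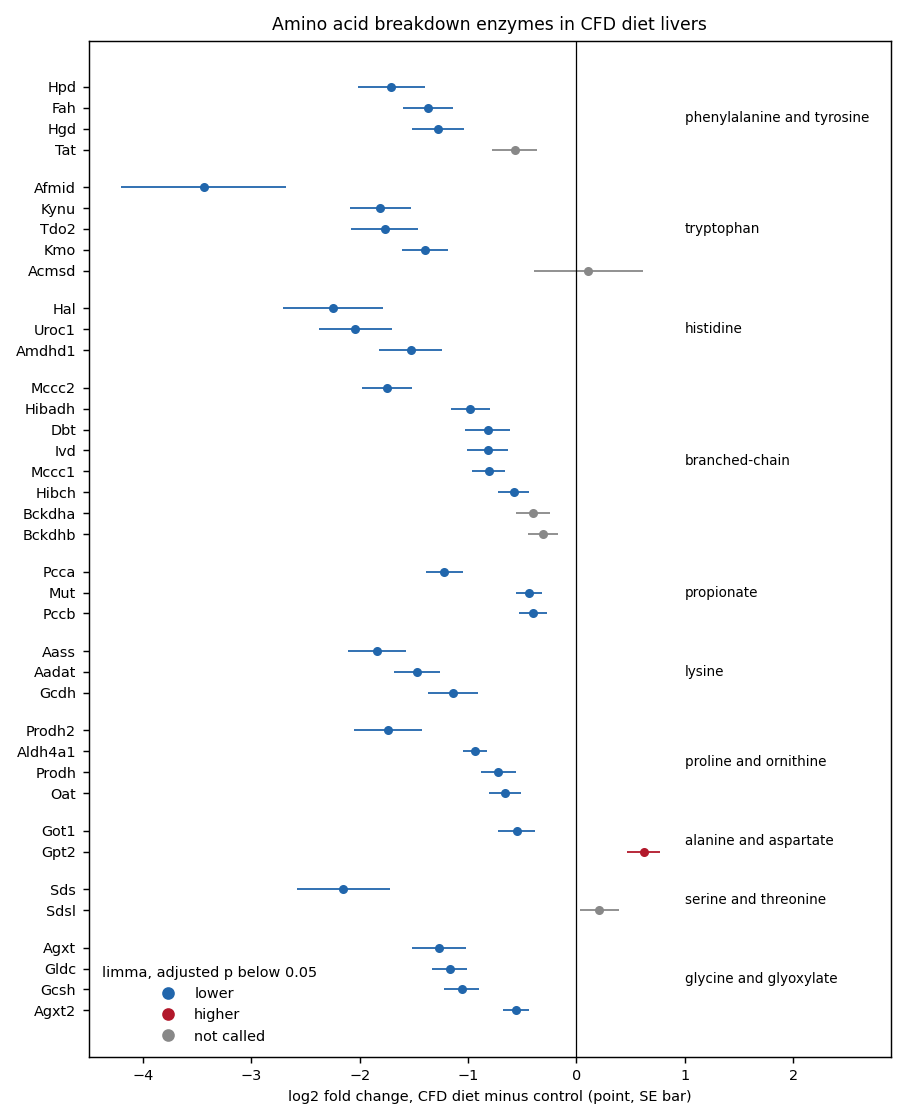
Log2 fold change (CFD diet minus control, x axis) of each tested enzyme, ordered by amino acid (y axis), with error bars for the standard error from limma over 3 arrays a group. Falls fill nearly every pathway and run as far as -3.44 for Afmid, and Gpt2 at 0.62 is the single red point; grey points did not pass.

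The enzymes moved together on each CFD diet array but not by the same amount. Relative to the control mean, the median of the enzymes stood at -1.21, -0.79 and -1.31 on CFD diet arrays 1 to 3, against -0.09, -0.00 and 0.08 on control arrays 1 to 3. Array 2 of the CFD diet was thus the nearest to the controls on this scale, which sets each array against its 75th percentile of signal. That percentile was 617.8, 404.1 and 670.2 on CFD diet arrays 1 to 3, and 438.8, 365.0 and 402.2 on control arrays 1 to 3. The part of this difference in the order of the arrays was not tested. Arrays with the same replicate number shared a slide, and the median difference between the diets was -1.17, -0.74 and -1.38 on slides 1 to 3. Of the 33 enzymes that were called, 28 had their difference closest to 0 on slide 2.

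The markers of liver cell types moved as well. Of 9 tested hepatocyte markers, 6 fell and none rose, with a median log2 fold change of -0.69. Of these markers, Cps1 and Hnf4a, are also on the periportal and regulator lists. Their summed signal, in multiples of the 75th percentile of each array, was 2130 to 3620 on CFD diet arrays and 3390 to 4520 on control arrays. Relative to the control mean, the average log2 signal of these markers was -0.96, -0.31 and -0.94 on CFD diet arrays 1 to 3. On this scale array 2 was again nearest to the controls. Markers of several other cell types, though not of all, went the other way: 8 of 8 stellate cell and myofibroblast markers rose (summed signal 39.5 to 54.2 on CFD diet arrays, 12.4 to 14.5 on control arrays). Of the macrophage markers 7 of 8 rose and 1 fell (374 to 520 on CFD diet arrays, 156 to 222 on control arrays), and 6 of 7 cholangiocyte markers rose (89.0 to 123 on CFD diet arrays, 6.35 to 9.53 on control arrays). All 6 dividing-cell markers rose (4.12 to 6.73 on CFD diet arrays, 1.03 to 1.21 on control arrays), as did the 4 neutrophil markers that could be tested (18.7 to 24.8 on CFD diet arrays, 1.35 to 2.34 on control arrays). Of 6 endothelial markers 1 rose and 3 fell (22.4 to 29.7 on CFD diet arrays, 36.2 to 39.9 on control arrays), and of 6 tested T, B and NK cell markers 1 fell and none rose (0.6 to 0.906 on CFD diet arrays, 0.854 to 1.15 on control arrays). One cholangiocyte marker and 1 neutrophil marker were not well above background on any control array. None of 4 kidney markers could be tested, and of 4 pancreas markers only Cela1 could be.

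In whole liver, fewer hepatocytes and less RNA of a gene per hepatocyte cannot be told apart. When the arrays were scaled to the mean of the hepatocyte markers instead, an alternative added after the data were seen, 14 of the 32 falls remained, 25 of the 32 values stayed negative and the median of the enzymes was -0.37. That scaling moved the median of all tested genes to 0.63. The 14 were Hpd, Fah, Tdo2, Afmid, Kmo, Kynu, Hal, Uroc1, Amdhd1, Mccc2, Aass, Aadat, Prodh2 and Sds. The part of cell composition in the falls was not tested further.

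In phenylalanine and tyrosine breakdown, 3 of 4 enzymes fell, with a group median of -1.32. The second enzyme of tyrosine breakdown, Hpd (4-hydroxyphenylpyruvate dioxygenase), had log2 signals of 5.16, 6.24 and 5.08 on the CFD diet arrays, against 7.11, 7.24 and 7.27 on the control arrays, where 0 is the 75th percentile of the array. All CFD diet values lay below all control values, and the fall was -1.71 ± 0.31 (SE from limma, n = 3 each, adjusted p = 0.00467). Fah, fumarylacetoacetate hydrolase, the last step, had 4.39, 5.20 and 4.46 on the CFD diet arrays, against 6.03, 6.00 and 6.12 on the control arrays. The groups were again separate, with a fall of -1.37 ± 0.23 (adjusted p = 0.00349). Hgd, homogentisate dioxygenase, which acts between them, fell by 1.28 ± 0.24 (adjusted p = 0.00581). The first enzyme did not pass: Tat, tyrosine aminotransferase, had 6.89, 7.28 and 6.84 on the CFD diet arrays, against 7.67, 7.20 and 7.86 on the control arrays. Here the groups overlapped, and the value was -0.57 ± 0.21 with an adjusted p of 0.0594. It passed with the array median as the scale (-0.77, adjusted p = 0.0281), without CFD diet array 2 (-0.71, adjusted p = 0.0403) or without control array 2 (-0.76, adjusted p = 0.0250). In every other setting Tat did not pass. Under quantile normalization it was at -0.11 (adjusted p = 0.653), and with the slide as a replicate block its adjusted p was 0.119. Scaled to the hepatocyte markers, Tat was at 0.16 (adjusted p = 0.612).

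Tryptophan breakdown through kynurenine had the deepest fall. Afmid, the arylformamidase that releases kynurenine, had log2 signals of -1.13, 2.00 and -0.64 on the CFD diet arrays, against 3.44, 3.47 and 3.66 on the control arrays. Its level on the CFD diet was 9.20% of the control level, a log2 fold change of -3.44 ± 0.76 (adjusted p = 0.00973). Percentages of the control level in this report are taken from the log2 fold change, and so compare means of log2 signals. Array 2 of the CFD diet stood apart from the other two, and the slides gave -4.57, -1.46 and -4.30. Without that array the fall was -4.40. The Afmid probe lies at chr11:117948461-117948520 in the mm7 coordinates of the array files, and a second Afmid probe fell by 2.53 ± 0.56.

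Of the 5 tryptophan enzymes 4 fell, with a median of -1.77. Kynu, kynureninase, had 0.45, 1.46 and 0.45 on the CFD diet arrays, against 2.53, 2.60 and 2.67 on the control arrays. No CFD diet value reached the lowest control value, and the fall was -1.81 ± 0.28 (adjusted p = 0.00283). Tdo2, tryptophan 2,3-dioxygenase, which opens the indole ring in the first step, fell by 1.77 ± 0.31 (adjusted p = 0.00449). Kmo, kynurenine 3-monooxygenase, fell by 1.40 ± 0.21 (adjusted p = 0.00252). Acmsd, the decarboxylase that steers an intermediate away from NAD synthesis, was dim and scattered: -3.57, -4.07 and -4.09 on the CFD diet arrays, against -4.34, -2.83 and -4.89 on the control arrays. It was well above background on only 2 of 3 control arrays, and its value was 0.11 ± 0.50 (adjusted p = 0.869). Haao, 3-hydroxyanthranilate dioxygenase, was not found under that name. A probe matched by its description had -0.05, 2.12 and 0.27 on the CFD diet arrays, against 3.38, 3.32 and 3.56 on the control arrays, a fall of -2.64 ± 0.53 (adjusted p = 0.00686 over 23483 tested probes), with array 2 again nearest to the controls.

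All 3 histidine enzymes fell, and their median of -2.04 was the lowest of the 10 pathway groups. Hal, histidine ammonia lyase, the first and irreversible step, had 3.45, 4.61 and 2.62 on the CFD diet arrays, against 5.67, 5.88 and 5.88 on the control arrays. Its level was 21.0% of control, a log2 fold change of -2.25 ± 0.46 (adjusted p = 0.00731), and the slides gave -2.22, -1.28 and -3.26. Uroc1, urocanase, the next step, had 2.80, 4.01 and 2.94 on the CFD diet arrays, against 4.98, 5.44 and 5.44 on the control arrays. It fell by 2.04 ± 0.34 (adjusted p = 0.00346), with no overlap between the groups. Amdhd1, which opens the imidazolone ring in the third step, fell by 1.53 ± 0.29 (adjusted p = 0.00548). Hal and Amdhd1 are also neighbours on chromosome 10, with RefSeq start sites 51.3 kb apart on opposite strands. By the probe positions of all 39 enzymes in mm7, Sds and Sdsl on chromosome 5 were the other pair within 200 kb, with their probes 24.7 kb apart.

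**Figure D2:**
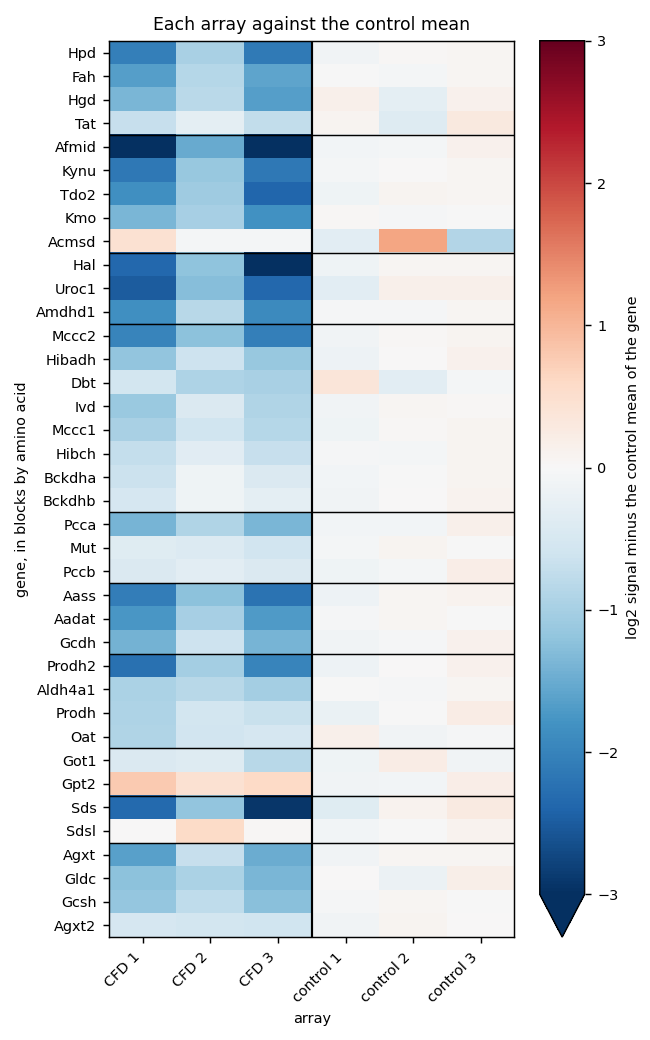
Log2 signal of each enzyme on each array minus its mean over the control arrays (colour), with 1 row per enzyme grouped by amino acid and 1 column per array, the CFD diet on the left. The CFD diet columns are the deepest blue for Afmid, Hal, Sds and Uroc1, and Afmid on arrays 1 and 3 and Hal on array 3 lie past the end of the colour scale. For most enzymes CFD diet array 2 is paler than the other two.

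In branched-chain breakdown 6 of 8 enzymes fell, with a median of -0.81, and the 2 that did not pass were the E1 subunits of the branched-chain keto acid dehydrogenase. Mccc2, the beta subunit of methylcrotonyl-CoA carboxylase in leucine breakdown, had -0.89, -0.14 and -0.97 on the CFD diet arrays, against 0.97, 1.11 and 1.17 on the control arrays. The groups were far apart, with a fall of -1.75 ± 0.23 (adjusted p = 0.00162). Hibadh, 3-hydroxyisobutyrate dehydrogenase of valine breakdown, had 5.86, 6.43 and 5.92 on the CFD diet arrays, against 6.90, 7.06 and 7.18 on the control arrays, a fall of -0.98 ± 0.18 (adjusted p = 0.00550). Ivd, isovaleryl-CoA dehydrogenase of the leucine route, fell by 0.82 ± 0.19 (adjusted p = 0.0112). Mccc1, the alpha subunit of the same carboxylase, fell by 0.81 ± 0.15 (adjusted p = 0.00478). Hibch, which frees 3-hydroxyisobutyrate in the valine route, fell by 0.58 ± 0.14 (adjusted p = 0.0154).

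The dehydrogenase complex itself commits the branched-chain keto acids to oxidation. Its E2 core, Dbt, fell by 0.82 ± 0.21 (adjusted p = 0.0181), with signals of -0.12, -0.50 and -0.56 on the CFD diet arrays, against 0.79, 0.11 and 0.37 on the control arrays. Bckdha, the E1 alpha subunit, had 5.65, 6.17 and 5.87 on the CFD diet arrays, against 6.22, 6.29 and 6.39 on the control arrays (-0.40 ± 0.16, adjusted p = 0.0760). Bckdhb, the E1 beta subunit, had 3.67, 4.06 and 3.89 on the CFD diet arrays, against 4.08, 4.18 and 4.28 on the control arrays (-0.31 ± 0.14, adjusted p = 0.112). The groups did not overlap for either gene, and a second Bckdha probe did pass at -0.51 ± 0.15 (adjusted p = 0.0280 over probes). Bckdha is the only enzyme here whose probes differed in call. Without CFD diet array 2 both E1 genes passed, Bckdha at -0.54 (adjusted p = 0.0176) and Bckdhb at -0.40 (adjusted p = 0.0463). With all arrays, Bckdha passed on the array median scale (-0.60, adjusted p = 0.0373) and as the mean of its probes (-0.45, adjusted p = 0.0446). Quantile normalization turned Bckdha to 0.06 (adjusted p = 0.642) and Bckdhb to 0.02 (adjusted p = 0.892). Scaled to the hepatocyte markers, Bckdha was at 0.33 and Bckdhb at 0.43, and neither passed. The Dbt fall did not pass without CFD diet array 2 (adjusted p = 0.0505), CFD diet array 3 (0.0656) or control array 3 (0.0515), and that of Hibch did not without CFD diet array 3 (0.0577) or control array 3 (0.0660). With no filter on dim probes neither passed (Dbt 0.0681, Hibch 0.0667), and under quantile normalization Hibch was at -0.21 (adjusted p = 0.0987).

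Among the other branched-chain genes, listed from pathway knowledge with earlier results of these arrays known, 9 of 12 fell, 1 rose and 2 did not pass. The pair that sets the phosphorylation of the complex moved in opposite directions. Bckdk, the kinase that inactivates it, had 1.30, 1.33 and 1.19 on the CFD diet arrays, against 0.65, 0.27 and 0.52 on the control arrays. It rose by 0.80 ± 0.14 (adjusted p = 0.00425) and was higher on all 3 slides. Ppm1k, the phosphatase that activates the complex, had 0.89, 1.45 and 0.30 on the CFD diet arrays, against 2.39, 2.89 and 2.58 on the control arrays, and fell by 1.73 ± 0.30 (adjusted p = 0.00406). Acadsb, an acyl-CoA dehydrogenase of isoleucine breakdown, fell by 1.57 ± 0.20. No measure of the phosphorylation itself was made.

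Propionyl-CoA from valine, isoleucine, methionine and threonine is carboxylated and then rearranged to succinyl-CoA. All 3 enzymes fell, with a median of -0.44. Pcca, the biotin-carrying alpha subunit of propionyl-CoA carboxylase, had 2.43, 2.92 and 2.46 on the CFD diet arrays, against 3.75, 3.75 and 3.97 on the control arrays, a fall of -1.22 ± 0.17 (adjusted p = 0.00195). The falls of the other two were shallow. Mut, the vitamin B12-dependent methylmalonyl-CoA mutase, had 6.18, 6.13 and 5.96 on the CFD diet arrays, against 6.47, 6.62 and 6.51 on the control arrays, a fall of -0.44 ± 0.12 (adjusted p = 0.0210). Quantile normalization turned its value to 0.05 (adjusted p = 0.825), and it did not pass without CFD diet array 3 (adjusted p = 0.0738), control array 2 (0.0699) or control array 3 (0.0722), or with no filter on dim probes (0.0903). Pccb, the beta subunit, fell by 0.40 ± 0.13 (adjusted p = 0.0409). With the slide as a replicate block its adjusted p was 0.0804, with normexp background correction 0.0628 and with no filter on dim probes 0.139, and it did not pass when any array but CFD diet array 2 was left out (adjusted p between 0.0595 and 0.156). Of 7 further propionate and vitamin B12 genes 3 fell and 4 did not pass. Mcee, methylmalonyl-CoA epimerase, fell by 1.43, and Tcn2, transcobalamin, fell by 0.47; scaled to the hepatocyte markers, Tcn2 was at 0.27.

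All 3 lysine enzymes fell, with a median of -1.47. Aass, the bifunctional synthase that starts lysine breakdown in mitochondria, had 3.82, 4.68 and 3.68 on the CFD diet arrays, against 5.74, 5.96 and 6.00 on the control arrays. The fall was -1.84 ± 0.27 (adjusted p = 0.00229), or 27.9% of the control level. Aadat, the aminoadipate aminotransferase that also acts on kynurenine, had 3.05, 3.80 and 3.10 on the CFD diet arrays, against 4.75, 4.86 and 4.77 on the control arrays, a fall of -1.47 ± 0.21 (adjusted p = 0.00220). Gcdh, glutaryl-CoA dehydrogenase, a step that lysine and tryptophan breakdown share, fell by 1.14 ± 0.23 (adjusted p = 0.00679). Of 8 further lysine genes 5 fell, 2 rose and 1 did not pass. The steps on either side of Aadat were among the falls: Aldh7a1, aminoadipate semialdehyde dehydrogenase, fell by 2.23 ± 0.29 and Dhtkd1, a subunit of the 2-oxoadipate dehydrogenase, by 1.75. The genes that rose were Crym (1.15 ± 0.18), a ketimine reductase that also binds thyroid hormone, and Phykpl (0.57 ± 0.15), the lyase for phosphorylated hydroxylysine. With the array median as the scale Phykpl was at 0.37 and did not pass (adjusted p = 0.0961).

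Proline and ornithine share their last step to glutamate, and all 4 enzymes of the group fell, with a median of -0.83. Prodh2, hydroxyproline dehydrogenase, had 3.36, 4.58 and 3.62 on the CFD diet arrays, against 5.45, 5.62 and 5.72 on the control arrays. The groups were separate, with a fall of -1.74 ± 0.31 (adjusted p = 0.00453). Its relative Prodh, proline dehydrogenase, had 4.60, 4.97 and 4.86 on the CFD diet arrays, against 5.33, 5.51 and 5.74 on the control arrays, a fall of -0.72 ± 0.16 (adjusted p = 0.0107). Aldh4a1, the dehydrogenase that both routes share, had 4.16, 4.27 and 4.09 on the CFD diet arrays, against 5.10, 5.07 and 5.17 on the control arrays. It had the smallest adjusted p of all 38 enzymes at 0.00115, with a fall of -0.94 ± 0.11. Oat, ornithine aminotransferase, fell by 0.66 ± 0.15 (adjusted p = 0.0111). Under quantile normalization Prodh (-0.27, adjusted p = 0.127) and Oat (-0.19, adjusted p = 0.362) did not pass, and with no filter on dim probes Oat did not (adjusted p = 0.0515).

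Alanine and aspartate transamination held the single enzyme that rose, beside 1 fall. Gpt2, the mitochondrial alanine aminotransferase, had 5.88, 5.56 and 5.71 on the CFD diet arrays, against 4.99, 5.01 and 5.31 on the control arrays. Every CFD diet value lay above every control value, at 153% of the control level, a rise of 0.62 ± 0.15 (adjusted p = 0.0135). The slides gave 0.89, 0.55 and 0.40. The rise kept its call without each array in turn (adjusted p between 0.0132 and 0.0494), but not with the array median as the scale (0.42, adjusted p = 0.0754) or with no filter on dim probes (adjusted p = 0.0602). Gpt, the cytosolic alanine aminotransferase, goes by an older name on the array and was matched by its accession. It had 6.51, 6.77 and 6.61 on the CFD diet arrays, against 6.36, 6.56 and 6.66 on the control arrays, and its value of 0.10 ± 0.14 did not pass (adjusted p = 0.577 over probes).

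Got1, the cytosolic aspartate aminotransferase, had 4.93, 4.97 and 4.53 on the CFD diet arrays, against 5.23, 5.59 and 5.25 on the control arrays. Its fall of -0.55 ± 0.17 (adjusted p = 0.0367) passed without CFD diet array 2 and did not without any other single array (adjusted p between 0.0573 and 0.109). Nor did it pass under quantile normalization (-0.12, adjusted p = 0.588) or with no filter on dim probes (adjusted p = 0.119). The Gpt2 probe lies at chr8:84117668-84117727 in mm7.

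In serine and threonine breakdown 1 of the 2 tested enzymes fell, with a group median of -0.97. Sds, serine dehydratase, which turns serine into pyruvate, had 2.88, 4.02 and 2.29 on the CFD diet arrays, against 4.84, 5.32 and 5.48 on the control arrays. Its level was 22.6% of control, a fall of -2.15 ± 0.43 (adjusted p = 0.00690). Sdsl, the serine dehydratase-like gene, had 2.20, 2.77 and 2.24 on the CFD diet arrays, against 2.11, 2.17 and 2.30 on the control arrays. Its groups overlapped, with a value of 0.21 ± 0.18 (adjusted p = 0.370). Tdh, threonine dehydrogenase, was well above background on only 2 arrays of each group and was not tested; it had -5.38, -5.42 and -5.25 on the CFD diet arrays, against -5.12, -7.40 and -1.82 on the control arrays.

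All 4 glycine and glyoxylate enzymes fell, with a median of -1.12. Agxt, alanine-glyoxylate aminotransferase, which clears glyoxylate before it becomes oxalate, had 6.01, 6.96 and 6.15 on the CFD diet arrays, against 7.54, 7.69 and 7.69 on the control arrays. The fall was -1.27 ± 0.25 (adjusted p = 0.00674). Gldc, the decarboxylase of the mitochondrial glycine cleavage system, had 1.79, 2.07 and 1.65 on the CFD diet arrays, against 3.03, 2.83 and 3.18 on the control arrays, a fall of -1.17 ± 0.16 (adjusted p = 0.00178). Gcsh, the lipoyl carrier of the same system, fell by 1.06 ± 0.16 (adjusted p = 0.00237). Agxt2, a mitochondrial aminotransferase for the same reaction as Agxt, had 2.02, 1.97 and 1.93 on the CFD diet arrays, against 2.41, 2.62 and 2.55 on the control arrays. The fall was -0.56 ± 0.12 (adjusted p = 0.00773). Amt, the third part of the cleavage system, had no probe under a matching name and was not analysed here.

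Genes related by name or activity, and subunits, were set against each other within each array, so that the scaling of the array cancels. For Sds minus Sdsl, the log2 difference averaged 0.66 ± 0.60 on the CFD diet arrays and 3.02 ± 0.25 on the control arrays (SD, n = 3 each). The diets differed by -2.35 for this pair. The other gene pairs differed by -1.02 for Prodh2 minus Prodh, by -0.71 for Agxt minus Agxt2 and by 0.52 for Gpt2 minus Gpt. For the subunits of a carboxylase, the diets differed by -0.94 for Mccc2 minus Mccc1 and by -0.82 for Pcca minus Pccb. In these 6 pairs the CFD diet values did not overlap the control values, and each had p = 0.1 by a two-sided exact permutation test, the smallest that 3 against 3 arrays allow. The p adjusted over the 8 pairs compared was 0.133, and with so few arrays no pair could have passed, whatever its values. For Bckdha minus Bckdhb the groups overlapped, with 2.03 ± 0.07 on the CFD diet arrays and 2.12 ± 0.01 on the control arrays (SD, n = 3 each, exact permutation p = 0.2, adjusted p = 0.229). For Dbt minus Bckdha they overlapped as well, with -6.29 ± 0.47 on the CFD diet arrays and -5.88 ± 0.40 on the control arrays (SD, n = 3 each, exact permutation p = 0.4, adjusted p = 0.4). A p that misses the threshold does not show that 2 genes changed alike.

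**Figure D3:**
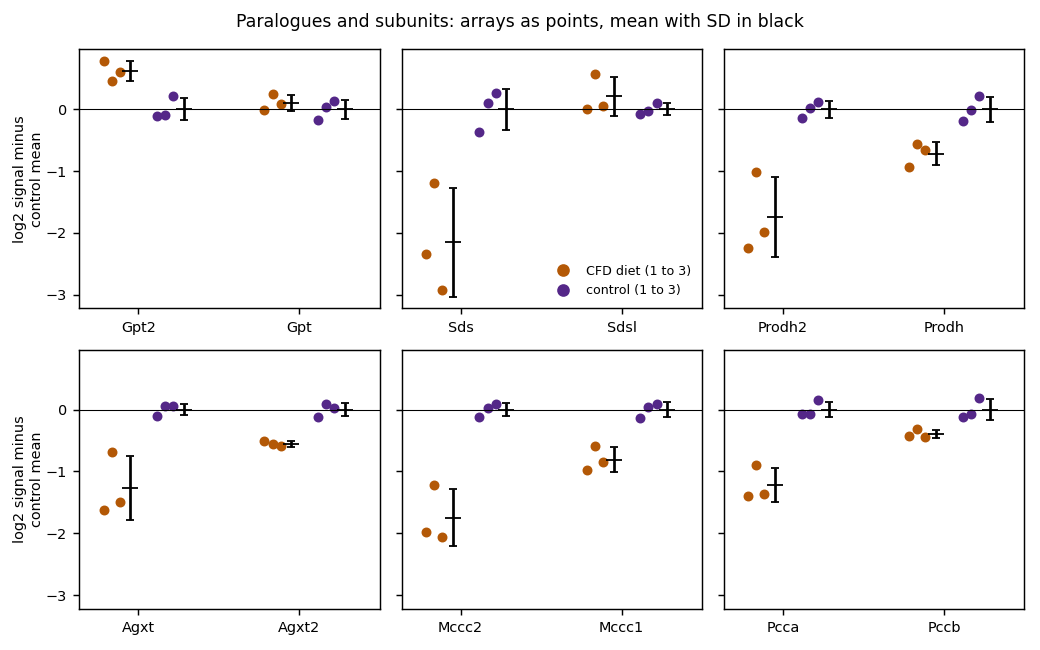
Log2 signal minus the mean of the control arrays (y axis) for both genes of each related pair on every array, with the CFD diet arrays left of the control arrays for each gene and black bars for the mean with its SD. In the Sds and Sdsl panel the Sds points drop by 2.15 on average while the Sdsl points overlap those of the controls, and in the Gpt2 and Gpt panel the Gpt2 points lie above the controls.

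The enzymes were also read by place in the cell and by cofactor, which their choice did not use. Of 14 cytosolic enzymes 11 fell, with a median of -1.62. Of 23 tested mitochondrial enzymes 20 fell, 1 rose and 2 did not pass, with a median of -0.82. Agxt, found in peroxisomes or mitochondria depending on the species, is in neither count. Of 11 enzymes that use pyridoxal phosphate, the cofactor of transamination, 8 fell, 1 rose and 2 did not pass, with a median of -0.66. Among the 27 other tested enzymes 24 fell, with a median of -1.14. No test was made between these classes.

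More than 1 probe was present for 12 enzymes, and of those with a second tested probe all but Bckdha had both probes on the same side of the threshold. Second probes fell by 1.66 ± 0.30 for Tdo2, by 1.78 ± 0.27 for Amdhd1, by 1.13 ± 0.21 for Ivd and by 0.86 ± 0.14 for Mccc1. The same held for Mccc2 (-1.85 ± 0.20), Prodh2 (-1.75 ± 0.30), Aldh4a1 (-1.23 ± 0.14) and Mut (-0.39 ± 0.12). The second Bckdhb probe was at -0.31 ± 0.16 and did not pass (adjusted p = 0.138 over probes). A second Kynu probe and another Mut probe were too dim to test.

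Among 77 further genes of amino acid metabolism, falls outnumbered rises. They were listed from pathway knowledge, but with earlier results of these arrays known, so the counts are no test of the list. Of the 74 that could be tested 51 fell, 10 rose and 13 did not pass, with a median of -0.82. Over all tested genes 27.4% were lower and 23.7% higher. Of the 10 rises 6 were of enzymes that make an amino acid rather than break one down. Psat1, phosphoserine aminotransferase of serine synthesis, had 2.73, 2.54 and 2.86 on the CFD diet arrays, against -2.15, -2.85 and -3.17 on the control arrays. It rose by 5.43 ± 0.26 (adjusted p = 7.47e-05). Asns, asparagine synthetase, had 5.84, 5.84 and 5.98 on the CFD diet arrays, against 2.67, 1.43 and 0.71 on the control arrays, a rise of 4.28 ± 0.46 (adjusted p = 0.000683). Phgdh, phosphoglycerate dehydrogenase, which starts serine synthesis, rose by 3.69 ± 0.21 (adjusted p = 9.72e-05). The proline synthesis enzymes Pycr1 and Aldh18a1 were called higher as well, but each was well above background on all 3 CFD diet arrays and on only 1 control array, and they entered the test through the CFD diet arrays. Pycr1 had -2.63, -3.21 and -2.76 on the CFD diet arrays, against -6.06, -7.03 and -6.72 on the control arrays. Aldh18a1 had -1.56, -2.18 and -1.45 on the CFD diet arrays, against -4.42, -4.84 and -5.36 on the control arrays. The size of these rises is not firm. Psph, the phosphatase that ends serine synthesis, rose by 0.79 ± 0.12 (adjusted p = 0.00278), and Hdc, which makes histamine from histidine, by 1.61 ± 0.17 (adjusted p = 0.000709). Bckdk, Crym and Phykpl, described above, complete the 10. In the further serine and threonine list 3 genes thus rose and 4 fell.

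**Figure D4:**
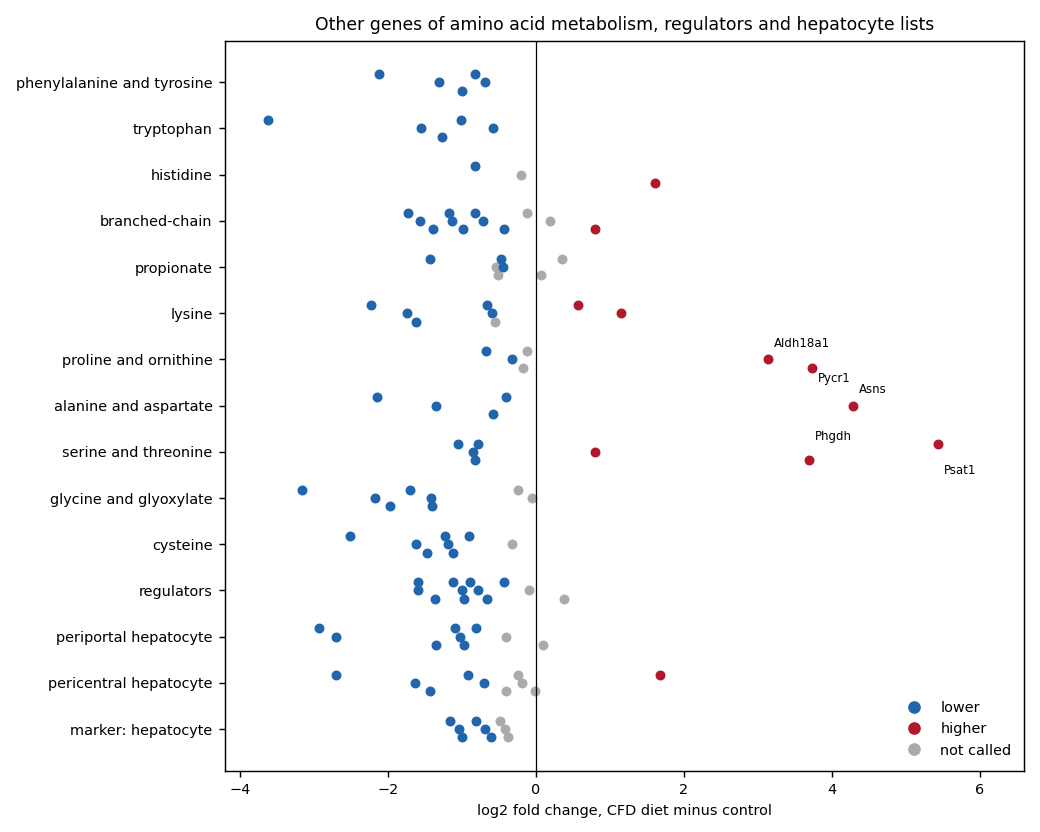
Log2 fold change (CFD diet minus control, x axis) of the further amino acid genes by pathway, the regulators and the hepatocyte lists (y axis), with 1 point per gene, blue for lower, red for higher and grey for not called. Psat1, Asns and Phgdh stand between 3.69 and 5.43, the points of Pycr1 and Aldh18a1 rest on control signals that were above background on 1 array, and Ido2 and Pipox lie lowest at -3.63 and -3.16.

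The deepest falls of these lists lay beside the enzymes above. All 5 tested tryptophan genes fell, led by Ido2, an indoleamine dioxygenase that opens the same ring as Tdo2, at -3.63 ± 0.81 (adjusted p = 0.0102). Its signals were -0.64, 2.60 and -0.36 on the CFD diet arrays, against 3.97, 4.22 and 4.31 on the control arrays, with array 2 apart as for Afmid. Aldh8a1, which oxidises a later kynurenine product, fell by 1.56. All 5 phenylalanine and tyrosine genes fell, led by Gch1, the first enzyme of tetrahydrobiopterin synthesis, at -2.12 ± 0.38, and Qdpr, which regenerates that cofactor, at -1.31. Of 8 tested glycine and glyoxylate genes 6 fell and 2 did not pass. Pipox, which oxidises sarcosine and pipecolate, was at -3.16 ± 0.63 (adjusted p = 0.00679), and Hao1, the peroxisomal source of glyoxylate, at -2.18 ± 0.40. Of 8 cysteine genes 7 fell, led by Csad, of taurine synthesis, at -2.51 ± 0.55 (adjusted p = 0.00925) and Ethe1, a mitochondrial sulfur dioxygenase, at -1.62.

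The remaining lists held both falls and rises. Of the 5 further alanine and aspartate genes 4 fell and 1 rose, with the liver asparaginase gene Aspg at -2.15. Of 6 further proline genes 2 fell, 2 rose and 2 did not pass; the falls were Hoga1, which cuts the last hydroxyproline intermediate, at -0.68 and the dipeptidase Pepd at -0.33. Scaled to the hepatocyte markers these were at 0.05 and 0.40, and under quantile normalization Pepd was at 0.03. Shmt1, which interconverts serine and glycine with folate in the cytosol, fell by 1.06. The histidine list had 1 fall, 1 rise and 1 gene that did not pass. Its fall was Ftcd, which hands the formimino group of histidine to folate, at -0.82.

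Transcription factors and hormone receptors that are known to act on these genes in liver were mostly lower. Of 12 listed, 10 fell and none rose, with a median of -0.94. Over all tested genes 27.4% were lower and 23.7% higher. The hepatocyte markers, which share Hnf4a with this list, had a median of -0.69. How far the regulators followed the hepatocyte markers was not tested. Klf15, a fasting- and glucocorticoid-induced factor known for amino acid breakdown genes in mice, had 2.66, 3.35 and 2.36 on the CFD diet arrays, against 4.40, 4.31 and 4.45 on the control arrays, a fall of -1.60 ± 0.25 (adjusted p = 0.00298). Cebpa, a C/EBP factor of mature hepatocytes, had 3.28, 3.96 and 2.88 on the CFD diet arrays, against 5.02, 4.78 and 5.08 on the control arrays, a fall of -1.59 ± 0.27 (adjusted p = 0.00408). Atf4, whose protein activates amino acid synthesis genes and is set largely by translation, was at -0.09 ± 0.13 (adjusted p = 0.601), and Ppargc1a at 0.38 ± 0.22 (adjusted p = 0.199). These are RNA levels, and no binding was measured.

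Hepatocytes differ along the line from portal to central vein, and markers of both ends were read. Of 9 periportal markers 7 fell and none rose, with a median of -1.03, led by Cyp2f2 (-2.94 ± 0.65) and Sult5a1 (-2.71 ± 0.54). Of 10 tested pericentral markers 5 fell, 1 rose and 4 did not pass, with a median of -0.55. Cyp1a2 had the deepest fall of these at -2.70 ± 0.46, and Rhbg, an ammonium transporter, rose by 1.68 ± 0.26. By the same threshold 27.4% of all tested genes were lower and 23.7% higher. The difference between the periportal and pericentral lists was not tested.

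Promoter windows were searched for 9 short motifs on both strands. RefSeq windows of 300 bases, with 250 before and 50 after the start, were given for 33 of the 39 enzymes and for 27025 genes in all. The nuclear receptor letters AGGTCA were in 11 of the 33 (33.3%), against 16.0% of all windows. The HNF4-type letters CAAAGTCC were in 2 (6.06%, against 1.44%), and the C/EBP letters TTGCNNAA in 5 (15.2%, against 10.8%). The remaining motifs were in smaller shares than over all windows. The HNF1 letters GTTAAT were in 1 (3.03%, against 7.20%), the CREB core TGACG in 3 (9.09%, against 21.0%) and the full CREB letters TGACGTCA, which contain that core, in 0 (0%, against 1.88%). The ATF4 letters TGATGNAA were in 1 (3.03%, against 4.06%), the glucocorticoid receptor letters AGAACA in 4 (12.1%, against 19.0%) and the TATA box TATAAA in 4 (12.1%, against 14.2%). The median GC content was 55.7% in the enzyme windows and 52.7% over all windows.

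In the sequences printed above, Hal holds a C/EBP match from -150 to -143 and, on the other strand, a TATA match from -28 to -23. Uroc1 holds a reverse AGGTCA from -104 to -99. Aass holds one from -127 to -122, a TGACG from -37 to -33 and a C/EBP match from -22 to -15. None of the 9 motifs was found in the printed letters of Afmid, which had the deepest fall, or of Gpt2, which rose. A match is a run of letters and not a site shown to be bound, and the lack of one says only that the letters are not in the window.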

How the data were processed

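The deposited scanner files hold a background-subtracted intensity per spot (the processed signal), made with Agilent Feature Extraction 10.5.1.1 per the file headers; the submitters' processing notes name version 10.7. The series' deposited value table, also intensity values, served as an alternative only; each column ranked its probes exactly as another replicate of its group did in the scanner files. Here signals were put on the log2 scale minus each array's 75th percentile, without control spots. Outlier spots were left out of the probe values but not of that percentile. A probe entered the test if 1 diet or the other had it well above background on each of its 3 arrays, and the tested probe with the highest mean stood for its gene. Of 41174 probes, the software's flag placed 23586 to 29045 above background on CFD diet arrays and 21689 to 26271 on control arrays; the number of arrays limits precision. Across genes, arrays correlated at 0.982 to 0.990 within the CFD diet, 0.990 to 0.993 within the control and 0.913 to 0.951 between diets. Differences between diets were tested by limma (version 3.58.1, under R 4.3.3) with Benjamini-Hochberg adjustment, and the fit was run on simulated data. The simulated noise was independent for each gene, so that run says nothing of arrays that shift together. Probe positions are those of mm7 in the files, and exon or UTR annotation of probes was not used here.

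The members and lists were chosen with earlier results of these data known. Per-array values are given, in each pathway, for the 2 largest called changes, for calls against the group's direction and for related pairs, and a few others after their values were seen. From the other lists the 2 largest called changes are named, with opposite calls where they number 3 or fewer and the remaining rises added after their values were seen. By the file headers, same-numbered arrays shared a slide. The deviations from the group means of same-numbered arrays correlated at 0.174, -0.0686 and -0.0104 over 15872 genes. Alternatives covered background correction, scaling, the filter, the slide block, the variance model, the probe rule, the value table and leaving out each array. A planned comparison of the proteins of related pairs was not made.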

Additional observations from a re-analysis of the deposited data

How the results depend on the processing

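The 32 falls were 26 to 34 in number under the settings that kept all arrays, apart from the hepatocyte marker scale given below, and 27 to 34 without 1 array, and 32 with the value table, with trend and robust variance, or with the filter on all 6 arrays. With the slide as a replicate block 31 enzymes fell, and Pccb was the only enzyme to lose its call (adjusted p = 0.0804). Over all genes 8129 were called, and between 5861 and 9035 without 1 array. Quantile normalization gave 27 falls, 2 rises (Gpt2 and Sdsl) and a median of -0.77, and turned Acmsd (-0.08), Bckdha (0.06), Bckdhb (0.02) and Mut (0.05). With the array median as the scale, Acmsd was at -0.09 and no enzyme rose (0). That scale moved the median of all genes to -0.31, against -0.11, and 66.3% of all calls were then falls, against 53.5%. With no filter on dim probes 26 enzymes fell and 0 rose, over 27670 genes, and Dbt, Got1, Hibch, Mut, Oat, Pccb and Gpt2 lost their calls. Without single arrays Acmsd ran between -0.33 and 0.71. The calls lost without 1 array were Dbt, Got1, Hibch, Mut and Pccb, with values in the report; the cause was not tested.

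Scaling to the hepatocyte markers, added after the data were seen, gave 14 falls and 2 rises among the enzymes, a median of -0.37, 35 calls among the further amino acid genes in place of 61, 13 among the zonation markers and regulators in place of 23, and 10.3% falls among all calls. It turned Tat (0.16), Bckdha (0.33), Bckdhb (0.43), Hibch (0.16), Pccb (0.34), Mut (0.29), Oat (0.08), Prodh (0.02), Got1 (0.19) and Agxt2 (0.18), none of them past the threshold. Acmsd and Tdh were too dim on these arrays for a firm value.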
